A study of Mus musculus with 8 samples.

Results

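The genes described here are the transcripts whose mouse symbol carries the suffix os, for opposite strand, together with the protein-coding genes they are named after. They were found in the deposited expression table of 13751 genes: a symbol had to end in os, or os and 1 digit, and had to equal another symbol in the table once the suffix was removed. The rule gave 46 opposite-strand transcripts and 45 partner genes, because Ube4b has both Ube4bos1 and Ube4bos3, and thus 46 pairs at 45 loci. All 45 partners are protein-coding in the GENCODE M21 annotation. Of the transcripts, 30 are typed there as antisense, 5 as lincRNA, 5 as processed transcript, 1 as a bidirectional promoter lncRNA and 1 as a transcribed unitary pseudogene (Abhd11os), while Ccpg1os, Cebpzos, Slc7a6os and Wdr83os are typed as protein-coding.

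The RNA came from 4 wild-type C57BL/6 mice, whose naive CD4 T cells were sorted by flow cytometry from peripheral lymph nodes. Each mouse number in the labels names a control culture and a culture supplemented with iron, labelled FAC, so that the 8 libraries form 4 pairs. Both groups were grown in RPMI GlutaMAX medium with 10% FCS and were activated for 20 h with plate-bound antibodies to CD3 and CD28, each at 4 µg/mL. The labels state neither a dose of FAC nor a vehicle in the control cultures. The comparison asks what added iron does to the RNA of CD4 T cells as they are activated.

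Many mammalian genes have a second transcript that is read from the other DNA strand. Where the starts of both lie close together and point apart, the pair is said to share a bidirectional promoter, and the non-coding member is usually the less abundant and less stable RNA. Where the transcripts overlap, polymerases crossing the same DNA and base pairing between the RNAs are known ways in which one member can affect the other, and a minority of such transcripts encode proteins of their own. The suffix os describes position alone, and transcripts of both kinds carry it.

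Depth was similar in both groups, at 25410299 to 37350654 expected counts per library, and all 46 opposite-strand transcripts had counts in every library. The sorted cell type was visible in its markers: the 8 CD4 T cell genes summed to 2461 to 2612 CPM (counts scaled to a common library total) in control and 2538 to 2596 CPM in FAC libraries. Ncr1, Lyz2, S100a8, Col3a1 and Pdpn, markers of natural killer, myeloid and stromal cells, were at 0 counts in all 8 libraries. Their whole lists were not all at 0: the 4 natural killer genes summed to at most 0.136 CPM, the 7 myeloid genes to at most 0.528 CPM and the 5 stromal genes to 7.18 to 8.89 CPM in control and 8.16 to 10.6 CPM in FAC libraries. The 2 CD8 T cell genes summed to 7.99 to 10.9 and 6.26 to 8.99 CPM, and the 6 erythroid genes to 0.0544 to 4.15 and 0 to 0.191 CPM. The 6 B cell genes summed to 93.6 to 104 CPM in control and 93.5 to 109 CPM in FAC libraries, and no marker of another cell type was called, most of them being too low to test. The part of these cell types in the results below was not tested. Opposite-strand transcripts took 369 to 391 CPM in control and 367 to 396 CPM in FAC libraries, and the partner genes took 3786 to 3866 and 3725 to 3848 CPM. Those of the transcripts that are not protein-coding took 206 to 222 CPM in control and 200 to 218 CPM in FAC libraries. By contrast, non-coding genes as a whole took 0.769% to 0.8005% of counts in control and 0.804% to 0.957% in FAC libraries. These ranges were separate only by a narrow step, since mouse 4 had 0.8005% in control and 0.804% with FAC. In bulk RNA of this kind, fewer cells expressing a gene and less RNA per cell cannot be told apart.

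The pairs lie in 5 arrangements in the M21 annotation, which uses the build GRCm38. In 7 pairs the members do not overlap and point away from each other, with starts 39 to 384 bases apart (Atad3aos, Brip1os, Ccpg1os, Cep83os, Foxd2os, Map2k3os and Tmem147os). In 17 pairs the members overlap at their starts, which lie 38 to 6412 bases apart. In 13 pairs one gene body lies inside the other, as with Kdm6bos, Galnt6os and Tnk2os. A further 5 pairs overlap at their ends, and 4 (Epb41l4aos, Fbxl12os, Oip5os1 and Slc7a6os) end towards each other without touching. Exons of both members overlap in 32 of the 46 pairs, over 39 to 1208 bases.

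A RefSeq promoter window, running from 250 bases before to 50 bases after an annotated start in GRCm38.p6, was found for 29 of the 46 transcripts and 36 of the 45 partners. In 8 pairs the windows of both members overlap. Windows of the transcripts had a median GC content of 59.7% and those of the partners 60.8%, against 52.7% over all 32851 windows. The median ratio of observed to expected CpG was 0.70 for transcripts, 0.76 for partners and 0.38 over all windows. The letters CTTCCGG, read by ETS factors, were found on either strand in 25.8% of transcript windows, 28.0% of partner windows and 8.86% of all windows. GGGCGG, the GC box, was found in 48.4%, 62.0% and 35.7%, and CCAAT in 45.2%, 38.0% and 37.4%. TATAAA was found in 3.23%, 4.00% and 13.6%. These percentages rest on 31 transcript and 50 partner windows, and the windows of the 8 pairs enter both. All windows cover 27025 genes and were not limited to the deposited table that the members come from. Whether other genes of that table differ from the members was not tested. Motifs were searched by their letters on both strands, matches of different motifs may overlap, and a match is no evidence that a factor binds.

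Windows of 3 shared promoters are shown because members that start within them differ widely in level, followed by the first of 2 windows of Uckl1os, whose log2 change with FAC was the highest among the transcripts tested. Capitals mark the letters of the GC box, the CCAAT box and the ETS motif on either strand. The Wdr83os window is chr8:85080713-85081012 on the plus strand and shares 284 of its bases with that of Wdr83. The Map2k3os window is chr11:60931818-60932117 on the minus strand and shares 286 with that of Map2k3. The Cep83os window is chr10:94688564-94688863 on the minus strand and shares 276 with that of Cep83, whereas the Uckl1os window, chr2:181578230-181578529 on the plus strand, lies 3493 bases from the nearest Uckl1 start.
Wdr83os: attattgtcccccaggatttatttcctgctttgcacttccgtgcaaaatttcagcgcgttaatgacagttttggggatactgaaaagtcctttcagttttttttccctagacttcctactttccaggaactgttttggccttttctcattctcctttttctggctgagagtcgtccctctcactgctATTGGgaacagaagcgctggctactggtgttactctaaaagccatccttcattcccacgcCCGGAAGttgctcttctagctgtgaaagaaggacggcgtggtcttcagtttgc
Map2k3os: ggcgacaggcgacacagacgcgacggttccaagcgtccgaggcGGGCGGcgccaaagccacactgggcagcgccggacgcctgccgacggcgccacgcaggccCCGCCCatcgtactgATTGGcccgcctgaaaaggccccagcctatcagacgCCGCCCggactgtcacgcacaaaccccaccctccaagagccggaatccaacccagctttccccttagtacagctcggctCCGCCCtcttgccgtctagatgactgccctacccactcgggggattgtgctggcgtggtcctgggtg
Cep83os: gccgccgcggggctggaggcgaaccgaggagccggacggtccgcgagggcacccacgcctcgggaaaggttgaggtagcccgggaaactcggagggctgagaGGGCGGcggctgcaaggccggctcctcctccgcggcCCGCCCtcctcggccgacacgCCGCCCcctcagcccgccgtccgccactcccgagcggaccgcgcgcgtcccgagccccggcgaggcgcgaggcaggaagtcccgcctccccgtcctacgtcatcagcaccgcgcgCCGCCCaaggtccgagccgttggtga
Uckl1os: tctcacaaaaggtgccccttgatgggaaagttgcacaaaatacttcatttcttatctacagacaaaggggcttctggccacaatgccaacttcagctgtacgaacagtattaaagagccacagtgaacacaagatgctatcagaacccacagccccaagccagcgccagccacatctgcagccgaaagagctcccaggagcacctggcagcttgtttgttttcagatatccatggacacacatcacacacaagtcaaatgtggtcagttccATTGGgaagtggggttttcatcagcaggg
The Map2k3os and Cep83os windows each hold 4 GC boxes, and that of Map2k3os also holds 1 CCAAT box in reverse orientation. The Wdr83os window holds 1 CCAAT box and 1 ETS match, both in reverse orientation, and the Uckl1os window holds 1 CCAAT box alone.

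How counts were credited to each member of an overlapping pair bears on every comparison. The authors' expected counts are estimates, and a gene's count stops being a whole number when a read that matches more than 1 gene is divided between them. In the 32 pairs with overlapping exons, 20 opposite-strand transcripts had a whole count (within 0.005) in 0 of 8 libraries and 3 had one in all 8. In the 14 pairs without such overlap, 10 transcripts had whole counts in all 8 libraries and 1, Brip1os, in none. For 12 pairs neither member was ever whole while the summed count of their locus was whole (within 0.0105) in all 8 libraries. For 1 of them, Ube4bos1 with Ube4b, that sum also holds the counts of Ube4bos3. Tspan32os and Tspan32, a tetraspanin of blood cells, had 22.53 and 475.47 counts in control 1, which add to 498. Genes across the table that averaged at least 20 counts showed the same division. For the 1361 whose exons overlap only a gene of the opposite strand, by at least 200 bases, 7.58% of values were whole. The share was 6.56% for the 360 that overlap a gene of the same strand and 74.4% for the 10254 without such an overlap of at least 200 bases. Only overlaps between genes at this count level were considered, so these genes may have shorter overlaps or overlaps with rarer genes. The library kit keeps strand, but none of the sources used here gives the strand setting of the counting. Counts of members with overlapping exons, Uckl1os and Kdm6bos among them, are uncertain in that a read on the shared bases could be credited to either member.

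**Figure D1:**
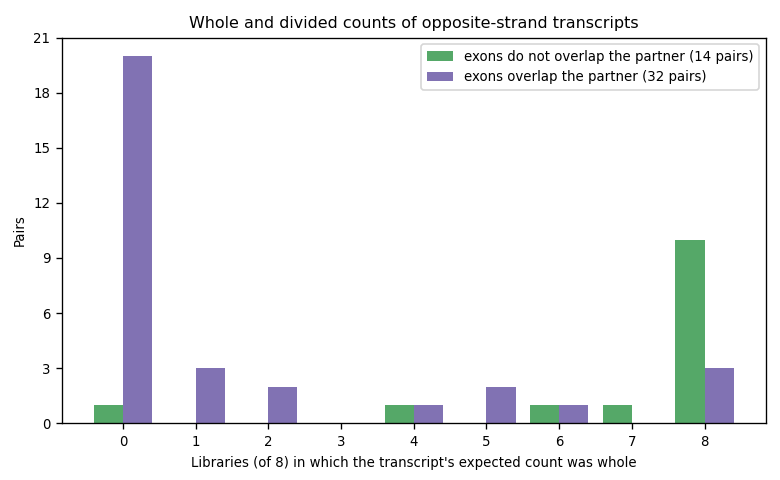
Number of pairs (y axis) by the number of libraries, of 8, in which the expected count of the opposite-strand transcript was whole (x axis), for the 32 pairs whose exons overlap and the 14 whose exons do not. The overlapping pairs pile up at 0 libraries (20 pairs) and the others at 8 (10 pairs).

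Opposite-strand transcripts were mostly the rarer member. Levels are compared between genes in TPM, a unit that allows for gene length. The transcript lay below its partner in 38 pairs and above it in 8, and the median ratio of partner to transcript was 21.3. A mean of at least 10 TPM was reached by 7 transcripts and by 35 of the 45 partners, while 22 transcripts lay between 1 and 10 TPM and 17 below 1 TPM. Tomm6, a subunit of the mitochondrial import pore, showed the widest gap: Tomm6 averaged 410 ± 8.35 TPM and Tomm6os 0.225 ± 0.108 TPM in control libraries (SD, n = 4 each). Transcripts above their partners were Wdr83os, Epb41l4aos, Oip5os1, Pigbos1, Brip1os, Mypopos, Ccdc142os and Foxd2os.

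**Figure D2:**
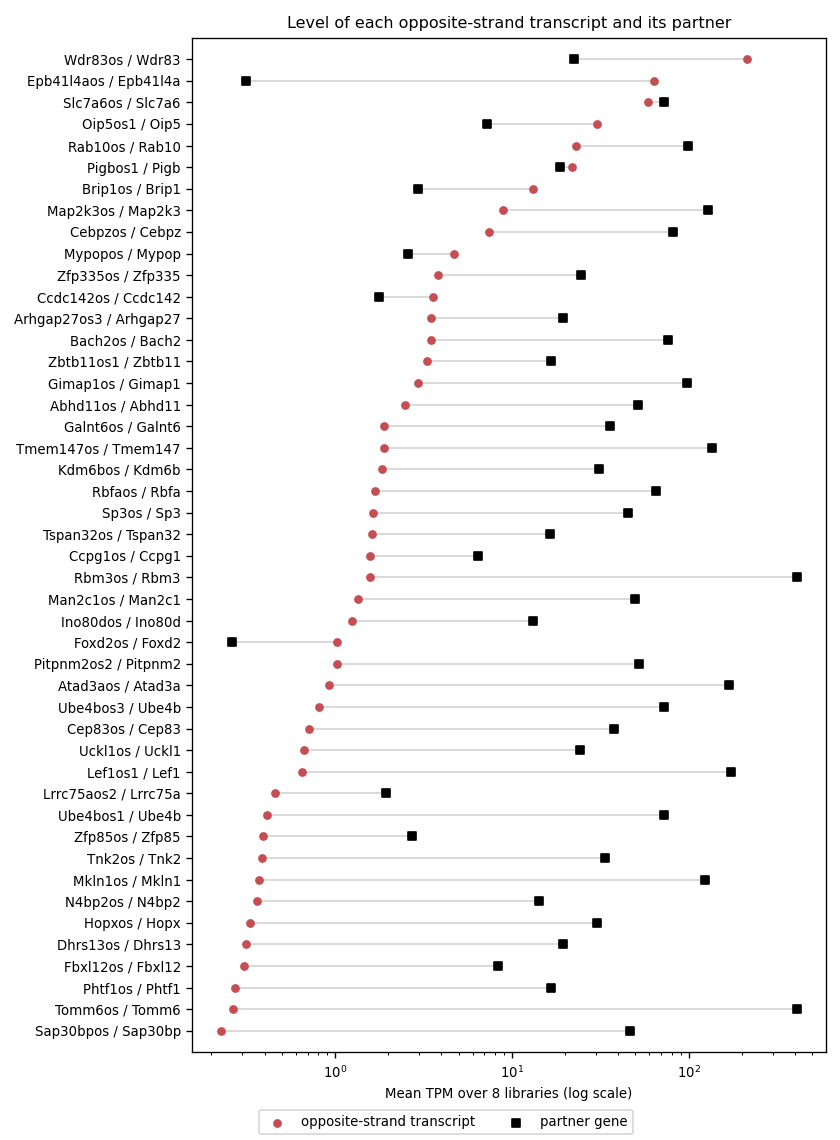
Mean TPM over 8 libraries (x axis, log scale) of each opposite-strand transcript (circles) and its partner gene (squares), with a grey line joining each pair and pairs ordered by the transcript. Circles lie left of squares in 38 of 46 pairs, and the 8 exceptions include Wdr83os and Epb41l4aos at the top.

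The most abundant transcript was Wdr83os, which encodes a small membrane protein of the machinery that inserts proteins into the endoplasmic reticulum. It averaged 211 ± 6.63 TPM in control and 215 ± 8.60 TPM in FAC libraries, and Wdr83, a WD-repeat scaffold protein, 22.7 ± 0.380 and 22.5 ± 2.40 TPM. Per library, Wdr83os had 110, 120, 108 and 107 CPM in control mice 1 to 4 and 104, 113, 112 and 109 CPM with FAC. The groups overlapped, and the log2 change of −0.022 had a 95% interval from −0.14 to 0.091. The second was Epb41l4aos, a non-coding RNA, with 61.4 ± 3.73 TPM in control and 66.0 ± 2.45 TPM in FAC libraries. Its partner Epb41l4a, a cytoskeletal FERM-domain gene, was almost silent at 0.245 ± 0.048 and 0.380 ± 0.0931 TPM. Epb41l4aos had 17.0, 21.5, 18.7 and 17.5 CPM in control and 20.3, 20.96, 19.1 and 19.2 CPM with FAC, again overlapping, with a log2 change of 0.089 and an interval from −0.11 to 0.28.

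The third was Slc7a6os, the protein-coding homologue of a factor for nuclear import of RNA polymerase II. It averaged 56.4 ± 2.18 TPM in control and 60.8 ± 3.94 TPM in FAC libraries, close to its partner Slc7a6, an amino acid exchanger, at 69.98 ± 2.79 and 76.0 ± 10.3 TPM. By library, Slc7a6os had 49.9, 53.2, 47.0 and 49.8 CPM in control and 53.7, 58.5, 52.7 and 49.6 CPM with FAC, higher with FAC in 3 of 4 mice. Its log2 change was 0.10 (interval −0.04 to 0.24). Slc7a6 had a log2 change of −0.034 on counts and 0.11 on the log2(TPM + 1) scale, so its direction depends on the unit.

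The fourth was Oip5os1, the long non-coding RNA also called Cyrano, known for driving the decay of the microRNA miR-7. It averaged 30.0 ± 2.25 TPM in control and 30.4 ± 3.10 TPM in FAC libraries, above the centromere factor Oip5 at 7.47 ± 1.22 and 7.02 ± 0.663 TPM. Oip5os1 had 73.9, 68.3, 76.1 and 68.5 CPM in control and 76.7, 70.8, 68.8 and 60.9 CPM with FAC. The groups overlapped at a log2 change of −0.047 (interval −0.21 to 0.11). The fifth was Rab10os, beside the vesicle-transport GTPase gene Rab10, at 23.7 ± 1.35 and 22.4 ± 0.965 TPM, against 99.5 ± 2.68 and 97.8 ± 3.37 TPM for Rab10. It had 24.8, 24.2, 27.1 and 23.7 CPM in control and 24.9, 26.4, 24.9 and 25.5 CPM with FAC, with a log2 change of 0.027 (interval −0.12 to 0.17). The 5 most abundant transcripts thus held intervals that all include 0 and exclude a change of 0.30 or more on the log2 scale in either direction. These intervals do not cover uncertainty in how shared reads were divided. That bears on Wdr83os and Rab10os, whose exons overlap their partners and whose counts were whole in 0 libraries.

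No opposite-strand transcript and no partner gene passed edgeR's quasi-likelihood test for FAC against control at an adjusted p of 0.05. Across the table, 438 of 13378 genes tested (3.27%) were called, 291 higher (2.18%) and 147 lower (1.1%). Of the 46 transcripts, 43 had enough counts to be tested (all but Atad3aos, Tnk2os and Sap30bpos), as did all 45 partners. At an unadjusted edgeR p under 0.05 there were 3 transcripts (Uckl1os, Brip1os and Lef1os1) and 10 partners, against 18.4% of all genes tested. DESeq2 called 1 transcript, Uckl1os, and 3 partners (Dhrs13, Kdm6b and Man2c1), against 5.96% of all genes. With the mouse as a block, which calls 6.87% of all genes, edgeR called Brip1os lower, Dhrs13 and Kdm6b lower, and Man2c1 and Tnk2 higher.

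The median log2 change was 0.027 for the 43 transcripts and 0.015 for the 45 partners, with 26 and 24 values above 0. Over all genes tested it was −0.0014. Transcripts that are not protein-coding had a median of 0.089 with 0 of 39 called, whereas all 1143 non-coding genes tested had a median of 0.28 with 50 called higher and 2 lower. The share of counts in non-coding genes, given above, moved in the same direction, and its part in these medians was not tested. Precision differed between the members: the median standard error of the log2 change was 0.30 for transcripts and 0.056 for partners, and 30 transcripts averaged fewer than 50 counts per library. Transcripts ranged from −1.10 (Mkln1os) to 1.37 (Uckl1os) and partners from −0.27 (Zfp85) to 0.54 (Epb41l4a). In the 43 pairs with both members tested, the signs matched in 22, the transcript alone was above 0 in 12 and the partner alone in 9. For 36 of the 88 members tested, none of them called there, the sign of the change turned under at least 1 other setting. By arrangement, the median log2 change of the transcripts was 0.16 where starts overlap, 0.15 where one lies inside the other, −0.037 for separate starts that point apart, 0.024 at overlapping ends and 0.033 for facing ends.

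**Figure D3:**
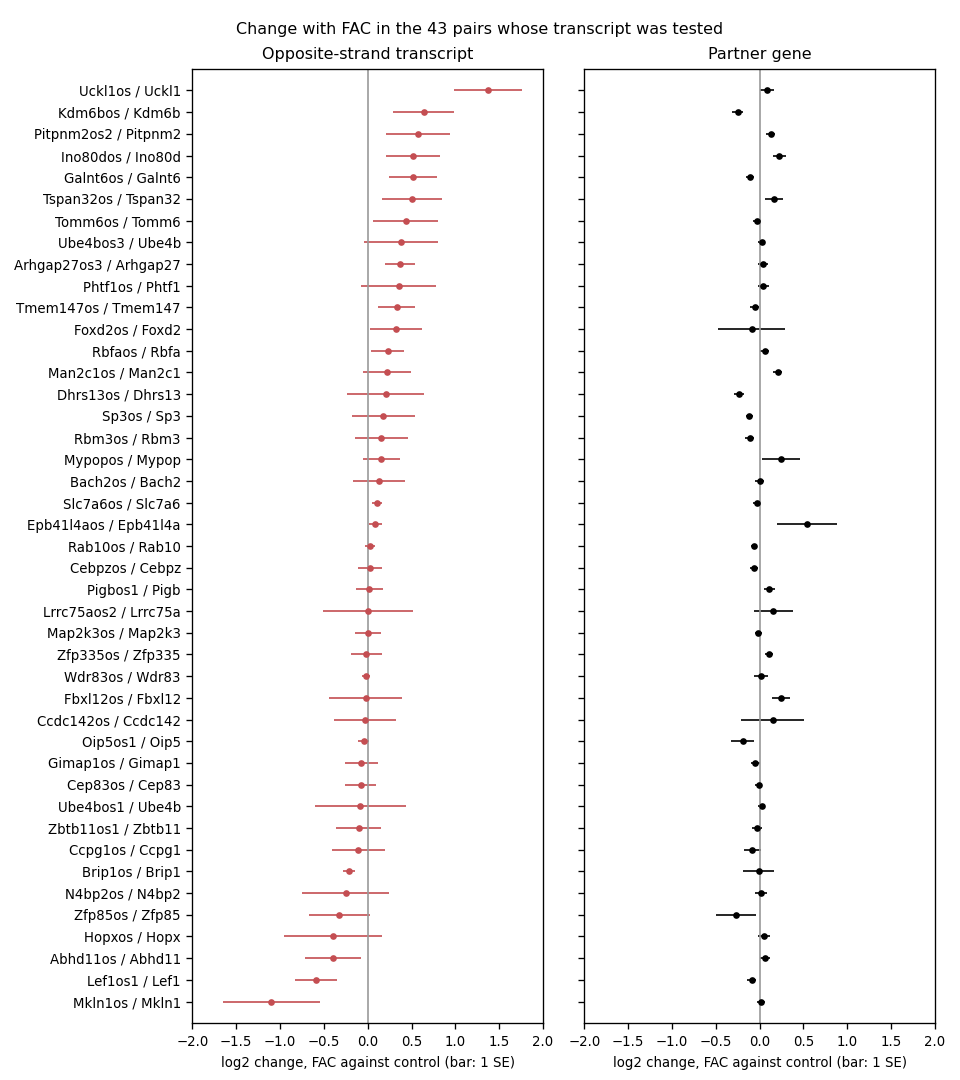
Log2 change with FAC (x axis, bars 1 SE) of the opposite-strand transcript (left) and the partner gene (right) for the 43 pairs whose transcript was tested, ordered by the transcript. Transcripts spread from −1.10 to 1.37 with wide bars, and partners from −0.27 to 0.54 with mostly narrow bars.

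Among partners that regulate chromatin and transcription, Kdm6b had the smallest edgeR adjusted p when the mouse was used as a block. It encodes an iron-dependent demethylase of lysine 27 on histone H3 and, like the genes described after it up to the ratios, it was chosen after its values were seen. Kdm6b had 164, 138, 162 and 139 CPM in control mice 1 to 4 and 133, 124, 133 and 116 CPM with FAC. Every FAC library lay below every control library, as was the case in one direction or the other for 11.1% of all genes tested. The log2 change was −0.25 ± 0.064 (SE), with an edgeR adjusted p of 0.0531, or 0.00154 with the mouse as a block. Its values under other settings ran from −0.29 to −0.20. Kdm6bos, inside the Kdm6b locus, had 14.44, 24.3, 29.07 and 19.1 counts in control and 26.72, 44.58, 46.57 and 13.73 counts with FAC. It was higher with FAC in 3 of 4 mice, and its log2 change of 0.64 ± 0.35 (SE) had an edgeR adjusted p of 0.355. When the counts of both members were summed, the Kdm6b locus had a log2 change of −0.24 and an edgeR adjusted p of 0.0593. Sp3, a zinc-finger transcription factor that binds GC boxes, had a log2 change of −0.12 (edgeR adjusted p 0.137), and Sp3os of 0.18 (0.839). Ino80d, a subunit of the INO80 chromatin remodeller, had 0.22 (0.130), and Ino80dos had 0.52 (0.394).

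Enzymes were represented by Dhrs13, a short-chain dehydrogenase/reductase, and Man2c1, a cytosolic alpha-mannosidase. Dhrs13 had 23.0, 23.8, 24.0 and 25.8 CPM in control and 19.8, 20.6, 20.5 and 21.3 CPM with FAC. The groups did not overlap, and the log2 change of −0.23 ± 0.060 (SE) had an edgeR adjusted p of 0.0504, or 0.0253 with the mouse as a block. Dhrs13os gave 0.20 ± 0.44. Man2c1 had 39.5, 40.9, 41.1 and 44.6 CPM in control and 46.1, 50.1, 50.1 and 44.9 CPM with FAC, a log2 change of 0.20 ± 0.056 with an edgeR adjusted p of 0.0698, or 0.0406 with the mouse as a block. Its groups were separate by the narrow step from 44.6 to 44.9 CPM. Man2c1os had 0.22 on counts but −0.085 on the log2(TPM + 1) scale.

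Brip1os was the transcript that edgeR called with the mouse as a block. Brip1 encodes an iron-sulphur cluster helicase of the Fanconi anaemia DNA repair pathway, and Brip1os starts 177 bases from it in the other direction. Brip1os had 39.3, 45.4, 42.2 and 45.3 CPM in control and 34.3, 37.3, 34.8 and 42.2 CPM with FAC. It was lower with FAC in 4 of 4 mice, although the fourth FAC library reached the range of the controls. The log2 change was −0.21 ± 0.071 (SE), with an edgeR adjusted p of 0.127, or 0.0213 with the block. Leaving out 1 library at a time gave changes from −0.28 to −0.18. Among those fits, only the one without the fourth FAC library, which had reached the control range, called Brip1os (−0.28, edgeR adjusted p 0.0287). Brip1 had 9.91, 11.8, 8.63 and 14.5 CPM in control and 8.67, 9.79, 10.9 and 15.3 CPM with FAC, a log2 change of −0.013 with an interval from −0.45 to 0.42. Brip1os held no whole counts although its annotated exons do not touch those of Brip1, and which other gene shares its reads was not tested.

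Some partners have known parts in T cells. Lef1, a transcription factor of naive T cells and a mediator of Wnt signalling, had −0.091 ± 0.052 (SE), and its sign was positive on the log2(TPM + 1) scale (0.052). Lef1os1 had 1.74, 1.14, 1.71 and 1.90 CPM in control and 0.921, 1.29, 1.03 and 1.06 CPM with FAC, which overlap. Its log2 change of −0.59 ± 0.24 had an edgeR adjusted p of 0.213. Bach2, a repressor that restrains effector differentiation, had 0.0027 ± 0.051 and Bach2os 0.13 ± 0.29. Gimap1, a GTPase needed for lymphocyte survival, had −0.052 ± 0.051 and Gimap1os −0.074 ± 0.19. Hopx, a homeodomain cofactor, had 0.050 ± 0.072 and Hopxos −0.39 ± 0.56, and Tspan32 had 0.17 ± 0.10 and Tspan32os 0.50 ± 0.34. None of these passed the edgeR test.

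The pairs with shared promoter windows shown above had little difference between the groups on either side. Map2k3, the kinase that activates p38, had −0.015 ± 0.037 on counts (0.036 on the log2(TPM + 1) scale) and Map2k3os 0.0039 ± 0.15. Per library, Map2k3os had 9.44, 7.97, 6.49 and 5.42 CPM in control and 7.28, 7.79, 7.88 and 6.38 CPM with FAC, so that the FAC libraries lay within the control range. Cep83, a centriole protein needed for cilia, had −0.012 ± 0.044 and Cep83os −0.078 ± 0.18. In TPM over the 8 libraries, Map2k3 averaged 129 against 8.93 for Map2k3os, and Cep83 averaged 37.9 against 0.711 for Cep83os.

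The ratio of transcript to partner within a library shows whether both members moved apart, and it does not depend on scaling between libraries. It was taken as log2 of the counts, with 0.5 added to each, and compared by a two-sided exact permutation test over the 70 assignments of libraries to groups, whose smallest p is 0.0286. That test ignores the mouse, and any pair whose groups do not overlap has this p by construction. The ratio was higher on average with FAC in 27 of 46 pairs, with a median difference of 0.082. The groups did not overlap in 3 pairs, Uckl1os, Tnk2os and Galnt6os, against 11.2% of 3656 pairs of neighbouring tested genes on opposite strands that overlap or lie within 5 kb. Within mice, the exact sign-flip test gave p = 0.125 for each of these 3 pairs, the smallest that 4 mice allow. On counts, the ratio moved the same way in all 4 mice in 10 pairs, 8 higher and 2 lower (Brip1os and Zfp335os). Of those neighbouring pairs, 25.9% did so. Both genes of every neighbouring pair had enough counts to be tested, whereas Tnk2os, Atad3aos and Sap30bpos, counted among the 46 pairs, did not.

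Uckl1os lies against Uckl1, a uridine-cytidine kinase-like enzyme of nucleotide salvage, with 459 bases of exon in common. It had 16.41, 8.1, 18.12 and 5.07 counts in control mice 1 to 4 and 27.27, 36.55, 33.64 and 24.52 counts with FAC, and all FAC libraries lay above all controls. Uckl1 had 432.59, 585.9, 566.88 and 506.93 counts in control and 590.73, 652.45, 549.36 and 415.48 counts with FAC, which overlap. The mean log2 ratio was −5.55 ± 0.89 in control and −4.15 ± 0.18 in FAC libraries (SD, n = 4 each), a difference of 1.40 (exact permutation p = 0.0286, unadjusted). Uckl1os alone had a log2 change of 1.37 ± 0.39 (SE), with an edgeR adjusted p of 0.0787, or 0.0505 with the mouse as a block and 0.0281 by DESeq2. Its values under other settings ran from 0.62 to 1.73, and its mean level was 0.665 TPM. The summed count of both members was whole in every library while neither member was, so the division of shared reads enters each of these values.

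Tnk2os lies inside Tnk2, which encodes the kinase ACK1, and shares 71 bases of exon with it. It had 4, 5, 4 and 8 counts in control and 15, 20, 17 and 8 counts with FAC, whole numbers in all 8 libraries. Too few reads kept it from the main test, and without a filter on low counts the log2 change was 1.47 with an edgeR adjusted p of 0.145. Tnk2 itself had 66.4, 75.7, 75.9 and 83.8 CPM in control and 75.0, 84.4, 88.8 and 86.9 CPM with FAC, higher in 4 of 4 mice. Its log2 change of 0.15 ± 0.069 (SE) had an edgeR adjusted p of 0.268, or 0.0441 with the mouse as a block. The log2 ratio was −8.66 ± 0.41 in control and −7.39 ± 0.43 in FAC libraries, a difference of 1.27 (exact permutation p = 0.0286, unadjusted, n = 4 each). In the fourth mouse the ratio barely differed, at −8.13 and −8.03.

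Galnt6os lies inside Galnt6, an enzyme that starts O-linked sugar chains on secreted proteins, and shares 441 bases of exon with it. It had 14.81, 34.92, 20.32 and 29.37 counts in control and 29.24, 35.2, 39.76 and 32.95 counts with FAC, so the counts overlapped. Galnt6 had 95.6, 91.0, 99.6 and 99.9 CPM in control and 87.6, 88.1, 91.3 and 91.2 CPM with FAC, which overlap by a narrow margin. Its log2 change was −0.11 ± 0.043 (edgeR adjusted p 0.199), and that of Galnt6os was 0.52 ± 0.28 (edgeR adjusted p 0.344). The log2 ratio moved from −6.90 ± 0.39 to −6.26 ± 0.22, a difference of 0.65 (exact permutation p = 0.0286, unadjusted, n = 4 each). As for Uckl1os, the summed count was whole in every library while neither member was, so the division of shared reads enters these values. The groups overlapped when the ratio was taken from TPM (difference 0.56) or from the deposited signal (0.59). By the same exact permutation test on counts, Kdm6bos gave a difference of 0.75 (p = 0.114), Slc7a6os 0.13 (p = 0.0571) and Brip1os −0.20 (p = 0.314), none adjusted. Taken from TPM, the differences were 0.72 for Kdm6bos, −0.0029 for Slc7a6os and 0.022 for Brip1os. From the deposited signal they were 0.78, −0.0028 and 0.028, so the sign for Slc7a6os and Brip1os depended on the unit.

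**Figure D4:**
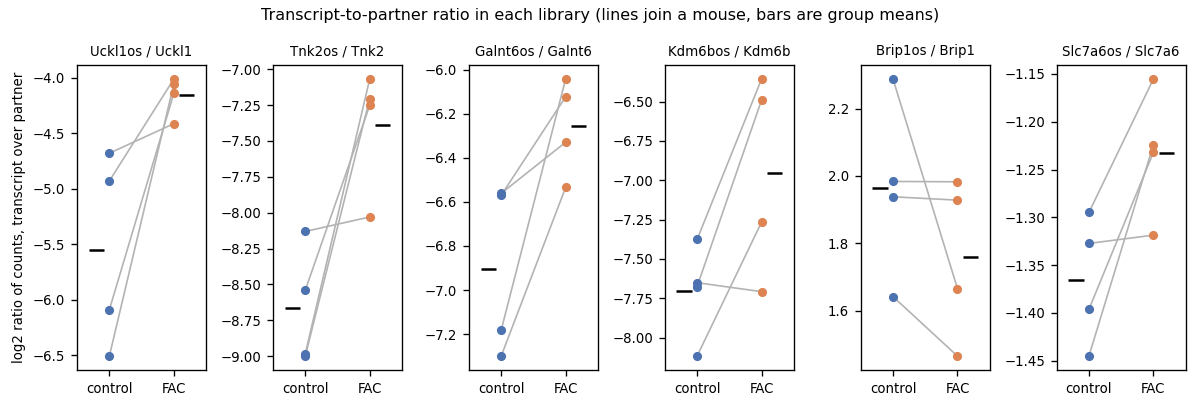
Log2 ratio of transcript to partner counts (y axis, a separate scale for each pair) in control and FAC libraries for 6 pairs, with a line for each mouse and bars for group means. Control and FAC points are apart for Uckl1os, Tnk2os and Galnt6os and overlap for Kdm6bos, Brip1os and Slc7a6os.

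Other symbols of the same kind gave few further values. Rab26os, Slc36a3os and Zbtb8os have no partner symbol in the deposited table, and edgeR called 0 of the 3, with log2 changes from −0.30 to 0.30 and 0 at an unadjusted p under 0.05. Gnasas1 and Znrd1as, which carry the antisense suffix as and do have a partner, gave log2 changes from −0.63 to 0.69, with 0 of 2 called and 1 at an unadjusted edgeR p under 0.05. When each locus was tested as the sum of its members, 0 of 45 loci were called by edgeR.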

How the data were processed

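RNA of 8 libraries (4 mice, control and FAC cultures) was measured; the labels' protocols state 250 ng of total RNA and a stranded mRNA kit. Tools in the submitters' processing notes are STAR 2.7.6a and FastQC, RSEM 1.3.1, DESeq2 1.26.0 with DESeq, and R 3.6.3, with GRCm39 as the build. For strand setting and annotation release, the sources used here give nothing. The authors deposited, per the file headers, RSEM gene results: expected counts (estimated reads per gene, unscaled) and TPM values. A deposited table of the authors holds a normalised signal for 13751 of 57010 genes; no source used here describes its scaling.

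Expected counts were rounded and tested with edgeR 4.0.16 (R 4.3.3; filter minimum count 10, minimum total 15; TMM factors; quasi-likelihood test, group alone), with Benjamini-Hochberg adjustment over all 13378 genes tested and a threshold of 0.05. CPM are the rounded counts scaled to library totals adjusted by the TMM factors. Intervals are 95% intervals from the SE of the log2 change and the t quantile of 6 residual degrees of freedom. Each label names the mouse, so same-numbered cultures share an animal; the correlation of their deviations was 0.246, 0.0817, 0.128 and 0.233 for mice 1 to 4. Alternatives were the mouse block, DESeq2 1.42.0, its size factors, no filter, limma 3.58.1 on log2(TPM + 1), log2(TPM + 0.1) and log2(signal + 1), and leaving out each library. A test of summed locus counts was added after seeing the data.

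Members with values in every library were to be called pairs (none), the 5 most abundant transcripts and pairs at the smallest exact p. The members and lists were chosen with earlier results of these data known. Gene types and pair arrangement come from GENCODE M21 and promoter windows from RefSeq, both on GRCm38, so no gene coordinates are printed. The scripts were tested on simulated data. Of the 46 transcripts, 30 averaged under 50 counts, which limits their precision; reads carry no molecular identifiers.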

Additional observations from a re-analysis of the deposited data

Results flagged for a closer look

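In 4 of the 182 groups of 4 libraries screened (each member in each group), 1 library stood apart from the other 3 by Dixon's gap test (critical value 0.829), where chance gives about 1 in 20. Mkln1os had 0.430 CPM in FAC mouse 4 and 0.0953 to 0.138 CPM in the other FAC libraries. Mypopos had 2.01 CPM in control mouse 4 and 2.37 to 2.42 CPM in the other controls. Zfp85os had 0.952 CPM in control mouse 1 and 0.458 to 0.527 CPM in the other controls. Lrrc75a, a partner gene, had 1.37 CPM in control mouse 4 and 2.37 to 2.38 CPM in the other controls.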

How the results depend on the processing

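Counts of calls depended on the setting. The replicate block by mouse called 919 genes against 438, the DESeq2 test 797, no filter on low counts 736, limma on log2(TPM + 1) 144 (112 higher, 32 lower), on log2(TPM + 0.1) 138 and on log2(deposited signal + 1) 156. Leaving out 1 library gave 147 to 549 genes. For opposite-strand transcripts the block called 1 (Brip1os), DESeq2 1 (Uckl1os), no filter 2 (both) and leaving out 1 library 0 to 1. For partner genes the block called 4, DESeq2 size factors 2 (Dhrs13 and Kdm6b), the DESeq2 test 3, no filter 2 (Kdm6b and Ino80d) and leaving out 1 library 0 to 3. Over both kinds these settings called 5, 2, 4 and 4 members and 0 to 4. The partner calls arose without control mouse 2 (1), control mouse 4 (2), FAC mouse 1 (2) or FAC mouse 4 (3). Separate ratio groups numbered 3 to 8 when 1 library was left out, with 6 without control mouse 2 and 8 without FAC mouse 4. The ratio of TPM and the ratio of deposited signal each left 2, Uckl1os and Tnk2os. The replicate block gave 10 pairs whose ratio of counts moved one way in every mouse, where the smallest exact p is 0.125. The block changed no other member's call.

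The sign of the log2 change turned under at least 1 setting for 36 of the 88 members tested, none of them called there. On log2(TPM + 1) these were Fbxl12os 0.104, Lrrc75aos2 −0.0384, Man2c1os −0.0849, Mypopos −0.137, Oip5os1 0.0178, Rab10os −0.0748, Wdr83os 0.0241, Zfp335os 0.0109, Cep83 0.0243, Lef1 0.0521, Map2k3 0.0358, Slc7a6 0.109, Wdr83 −0.0165 and Zbtb11 0.0146. On log2(TPM + 0.1) they were Fbxl12os 0.313, Lrrc75aos2 −0.0268, Man2c1os −0.0878, Mypopos −0.170, Oip5os1 0.0182, Rab10os −0.0777, Wdr83os 0.0242, Zfp335os 0.0140, Cep83 0.0249, Lef1 0.0524, Map2k3 0.0360, Slc7a6 0.110, Wdr83 −0.0174 and Zbtb11 0.0155. On log2(signal + 1) they were Fbxl12os 0.312, Lrrc75aos2 −0.0615, Man2c1os −0.124, Mypopos −0.221, Rab10os −0.125, Lef1 0.00481, Mkln1 −0.0309, N4bp2 −0.00558, Slc7a6 0.0622 and Wdr83 −0.0646. The replicate block gave Fbxl12os 0.0134 and Lrrc75aos2 −0.00898, the DESeq2 test Lrrc75aos2 −0.0102, and no filter Lrrc75aos2 −0.0160, Map2k3os −0.00853 and Bach2 −0.00930. Leaving out 1 library turned the sign of 30 members. Their ranges were Atad3a −0.00534 to 0.0348, Bach2 −0.0347 to 0.0266, Bach2os −0.144 to 0.266, Brip1 −0.198 to 0.132, Ccdc142 −0.0706 to 0.672, Ccdc142os −0.326 to 0.138, Ccpg1os −0.338 to 0.0264, Cebpzos −0.0773 to 0.119, Cep83 −0.0354 to 0.00883 and Cep83os −0.201 to 0.0320. Further ranges were Dhrs13os −0.165 to 0.451, Fbxl12os −0.175 to 0.380, Foxd2 −0.284 to 0.107, Gimap1os −0.169 to 0.0960, Lrrc75a −0.00179 to 0.269, Lrrc75aos2 −0.365 to 0.401, Map2k3 −0.0319 to 0.00505, Map2k3os −0.115 to 0.141, Mkln1 −0.01052 to 0.0533 and N4bp2 −0.0349 to 0.0560. The rest were Oip5os1 −0.100 to 0.00834, Phtf1 −0.0131 to 0.0742, Phtf1os −0.0970 to 0.625, Pigbos1 −0.0864 to 0.120, Ube4b −0.0149 to 0.0461, Ube4bos1 −0.459 to 0.335, Wdr83 −0.0364 to 0.0707, Wdr83os −0.0434 to 0.0184, Zbtb11os1 −0.309 to 0.0580 and Zfp335os −0.117 to 0.0648. The cause was not tested. Depth limits most transcripts: 30 of 46 averaged under 50 counts, and for these a change could go undetected.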
